A study of Schizosaccharomyces pombe with 16 samples.

Results

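A set of 10 genes of the fission yeast Schizosaccharomyces pombe encodes or acts on the C-terminal domain (CTD) of RNA polymerase II and is described here across 4 CTD mutants. The genes were taken by systematic ID and not by any measured value. They are rpb1 (SPBC28F2.12), mcs6 (SPBC19F8.07), cdk9 (SPBC32H8.10), pch1 (SPBC32F12.06), lsk1 (SPAC2F3.15), lsc1 (SPBC530.13), fcp1 (SPAC19B12.05c), ssu72 (SPAC3G9.04), spt5 (SPAC23C4.19) and spt6 (SPAC1F7.01c). Of these 10 IDs, 9 had probes, out of 5195 genes with an exon or non-coding RNA probe in the value table. No probe of spt6 was found by its ID, and spt6 is not analysed here.

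The CTD is a tail of heptad repeats on Rpb1, the largest subunit of the polymerase, and its serines are phosphorylated and dephosphorylated in each round of transcription. Mcs6, the Cdk7 kinase of the initiation factor TFIIH, acts early on Ser5 and Ser7. Cdk9 with its cyclin Pch1 phosphorylates the elongation factor Spt5 as well as the CTD, and Lsk1, the Cdk12 homologue, with its cyclin Lsc1 is the main Ser2 kinase. Ssu72 removes phosphate from Ser5 and Fcp1 from Ser2. Spt5 travels with the elongating polymerase, and Spt6 is a histone chaperone that binds it.

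Each splicing-sensitive Agilent array held RNA of 1 mutant in one colour and of wild type (WT) in the other. The mutant alleles were rpb1-S7A (4 arrays), rpb1-S2A (4), rpb1-S2AS7A (5, written S2A/S7A) and rpb1-S7E (3), in which alanine replaced the serine at heptad position 7, 2 or both, or glutamate the one at position 7. Per the labels all 4 carried 14 altered heptads after a rump, given as 18 repeats, so every mutant tail also kept repeats outside the altered heptads. Whether the 18 counts the rump alone was not checked. The reference is labelled WT with no further genotype, and neither mating type nor the number of strains or clones is given in the sources used here. All cells grew in YES, a rich medium, to mid-log phase, in separate cultures, and total RNA was reverse transcribed.

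Values are log2 ratios, taken as mutant over WT. Neither this direction nor the base is stated in the sources, and both are likely only. A ratio is a difference from WT, so it gives no level of one gene against another, and in bulk RNA a change per cell cannot be told apart from a change in the share of cells with the transcript. Each array held between 13061 and 14918 values for 15207 probes. Precision is limited by how many arrays each mutant has. Of 16 arrays, 7 had the mutant in Cy5 and 9 in Cy3. Over genes, which are not independent, Pearson r was 0.57 to 0.98 for the 25 pairs of arrays within a mutant and 0.17 to 0.77 between mutants. In earlier results of these data 3 arrays stood apart, the fourth of S7A, the fourth of S2A and the first of S7E, and values that rest on them are given with and without them. All 3 had the mutant in Cy5, and the first of S7E was the only S7E array that did. A dye effect particular to S7E therefore cannot be told apart from that array. Whether the arrays shared 1 WT RNA is not given, and if they did, the spread of WT has no place in a test of a mutant mean. p-values measure only the spread between these arrays.

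The members carried 60 probes, of which 9 read exons, 23 read introns, 23 span neighbouring exons and 5 span exons with others left out between them. rpb1 had 17 of them, fcp1 12, lsc1 9, lsk1 7, cdk9 and pch1 5 each, ssu72 3, and mcs6 and spt5 only the exon probe. Every exon value below therefore rests on 1 probe. The probes' sequences and those of the genes were not in the sources used here, so no sequence is shown and the altered heptads were not checked on the array.

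Measured on the exon probe, the RNAs of this machinery moved by small amounts. The rpb1 exon probe in S2A moved most, with a 1.66-fold rise. Its fitted values were 0.73 in S2A and 0.041 in S7E. The mean of the rpb1 junction probes, which span neighbouring exons, gave 0.39 in S2A and 0.73 in S7E. rpb1 is also the altered gene, and what each of its probes reads in the mutant alleles was not tested. On the exon probe cdk9 and spt5 were called higher in S2A, S2A/S7A and S7E. Among the 4 tests against WT, ssu72 was called lower in S2A alone. lsc1 was called lower in S7A, S2A and S2A/S7A. It missed the threshold in S7E, though all S7E arrays were below 0. S7E minus S7A was 0.045 for lsc1 (limma adjusted p = 0.722). Lost when 1 array was left out were cdk9 in S2A, spt5 in S2A and in S7E, and lsc1 in S7A. By the junction mean cdk9 was called in S7E alone, and lsc1 in S2A and S2A/S7A alone. A gene was called where its p from limma, after Benjamini-Hochberg adjustment for the 5163 genes in the fit, was below 0.05. In S7A 1 member was called higher (lsk1) and 2 lower (lsc1 and fcp1), where 18.0% and 16.6% of all genes were called higher and lower. In S2A 3 were called higher (rpb1, cdk9 and spt5) and 2 lower (lsc1 and ssu72), against 31.2% and 27.1% of all genes. In S2A/S7A 4 were called higher (rpb1, cdk9, fcp1 and spt5) and 2 lower (lsc1 and mcs6), against 35.1% and 27.8%. In S7E 5 were called higher (cdk9, pch1, mcs6, fcp1 and spt5) and 0 lower, against 33.5% and 27.6%. These counts of 9 lie near what all genes gave and are no result about the members as a set. The median size of the members' log2 change was 0.065 in S7A, 0.14 in S2A, 0.24 in S2A/S7A and 0.19 in S7E, beside 0.13, 0.21, 0.22 and 0.26 over all genes.

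**Figure D1:**
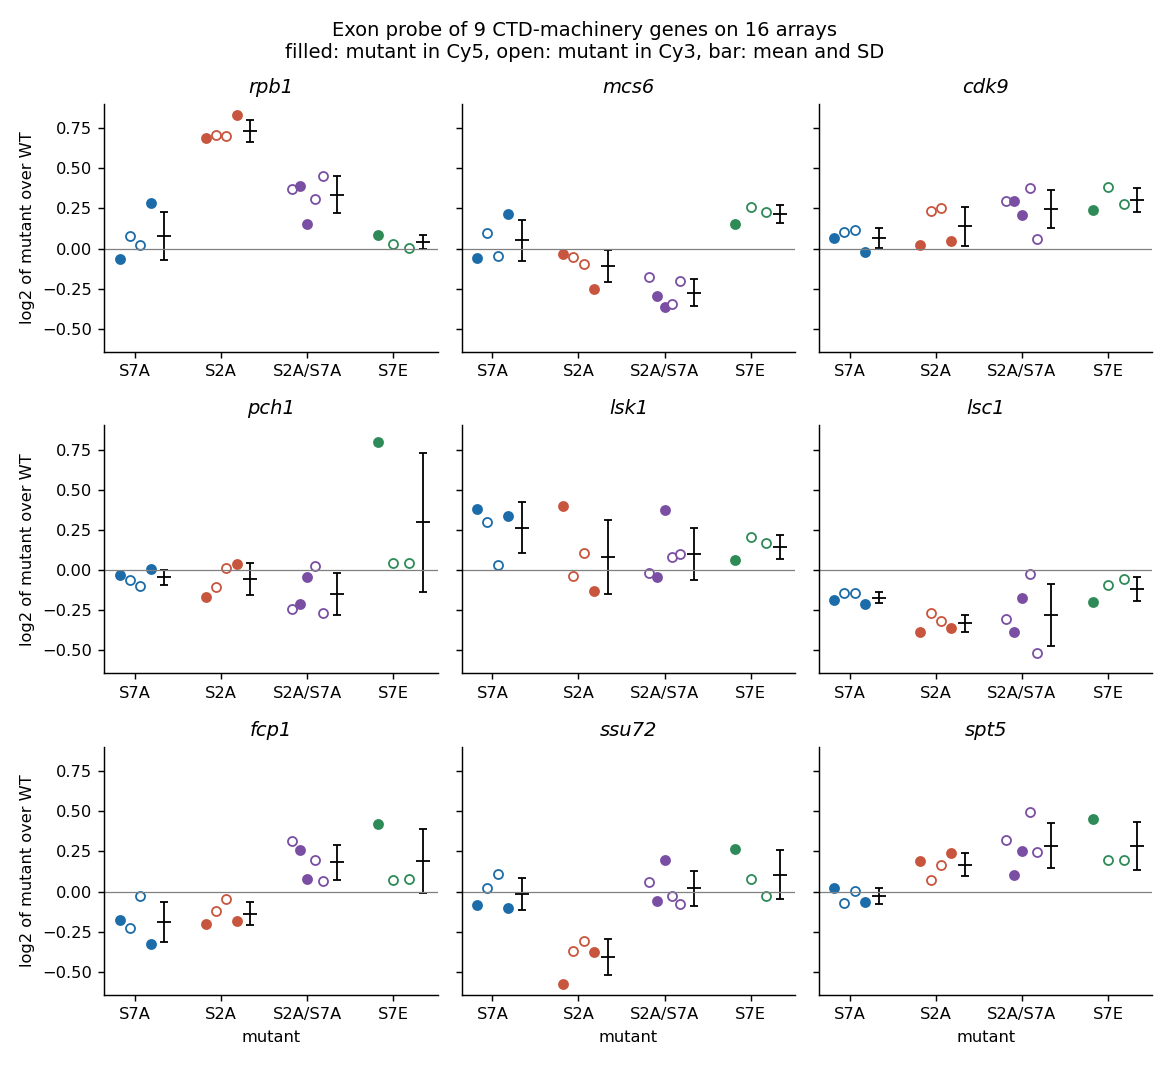
Exon-probe log2 ratio of mutant over WT for the 9 measured genes, one point per array (filled where the mutant was in Cy5, open where it was in Cy3), with the mean and SD of each mutant as a bar. The 4 S2A arrays of rpb1 lie between 0.69 and 0.83, above every other array, and S7E replicate 1 of pch1 at 0.80 lies far from the other S7E arrays.

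**Figure D2:**
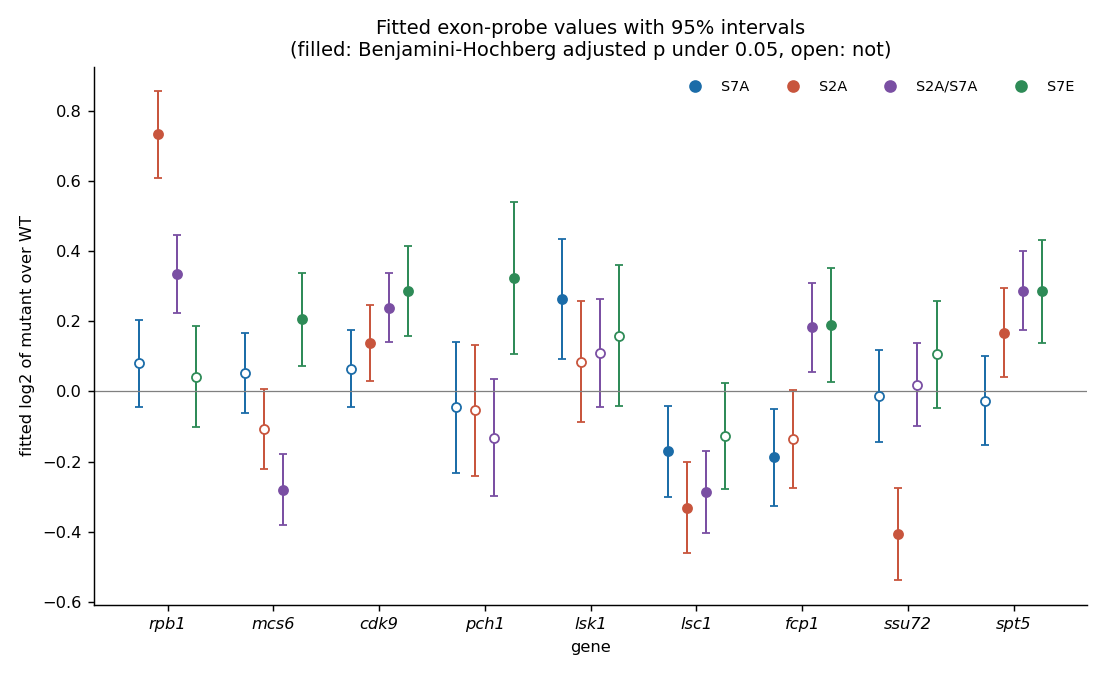
Fitted log2 ratio of mutant over WT (limma, all 16 arrays, dye term) with 95% intervals for the 9 genes in the 4 mutants, filled where the adjusted p was under 0.05. The interval of rpb1 in S2A, from 0.61 to 0.86, lies above every other interval, and that of pch1 in S7E, from 0.11 to 0.54, is the widest.

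On its exon probe, which lies in exon 7, the polymerase gene rpb1 read 0.69, 0.71, 0.70 and 0.83 on the 4 S2A arrays. On the 5 S2A/S7A arrays it read 0.37, 0.39, 0.15, 0.31 and 0.45. The S7A arrays gave -0.066, 0.078, 0.024 and 0.29, and the S7E arrays 0.087, 0.031 and 0.0024. The S2A arrays were above all others and overlapped no other mutant, while S2A/S7A overlapped S7A through 1 array of each. The fitted change was 0.73 ± 0.058 (SE, n = 4, limma adjusted p = 6.66e-08) in S2A and 0.34 ± 0.052 (n = 5, limma adjusted p = 5.19e-05) in S2A/S7A. In order, S2A exceeded S2A/S7A (S2A/S7A minus S2A -0.40 ± 0.078, limma adjusted p = 0.00211), which exceeded S7A by 0.26 ± 0.078 (limma adjusted p = 0.0159). This second step did not pass without S7A replicate 1 (0.20, limma adjusted p = 0.0626) or with the arrays scaled to equal spread (0.0762). S7A and S7E were not told apart, with a difference of -0.039 and a 95% interval from -0.23 to 0.15.

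The junction probes of the same gene gave another order. Each reads across a pair of adjacent exons, and the mean of the 6 rpb1 junction probes was 0.83, 0.62 and 0.70 on the S7E arrays, where the exon probe had read close to 0. On the S2A/S7A arrays it was 0.66, 0.70, 0.58, 0.69 and 0.56. On the S2A arrays it was 0.13, 0.21, 0.23 and 0.99, and on the S7A arrays between 0.052 and 0.10. By these probes S7E and S2A/S7A were high on every array, S7A was low, and S2A was low on 3 arrays and high on replicate 4.

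Fitted, the junction mean of rpb1 rose by 0.73 ± 0.11 in S7E (1.66-fold, limma adjusted p = 4.58e-05), by 0.65 ± 0.085 in S2A/S7A (8.94e-06) and by 0.39 ± 0.094 in S2A (0.00243), and was 0.079 ± 0.094 in S7A (0.535). Without S2A replicate 4 the value in S2A was 0.19 (limma adjusted p = 0.00214). The use of junction means was chosen after the data were seen. Of the 7 members with such probes, 1 was called in S7A, 4 in S2A, 5 in S2A/S7A and 3 in S7E, where 39.4%, 58.7%, 64.6% and 60.9% of 2190 genes were called.

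The gap between junction mean and exon probe of rpb1 was itself tested. It was 0.69 ± 0.11 in S7E (limma adjusted p = 0.00104, junctions higher on 3 of 3 arrays), 0.31 ± 0.081 in S2A/S7A (0.0216, 5 of 5 arrays), -0.34 ± 0.090 in S2A (0.0227, lower on 3 of 4 arrays) and -0.0011 ± 0.090 in S7A (0.995). Of the 7 members, 0 were called for this gap in S7A, 3 in S2A (rpb1, lsk1 and fcp1), the same 3 in S2A/S7A and 1 in S7E (rpb1), where 14.6%, 13.2%, 10.9% and 9.47% of 2175 genes were called. In S2A the rpb1 gap was -0.51 without replicate 4 (limma adjusted p = 2.45e-04) and missed the threshold without replicate 1 (0.112), 2 (0.0959) or 3 (0.101). In S2A/S7A the rpb1 gap missed the threshold without replicate 1 (0.0612), 2 (0.0505), 3 (0.0899) or 4 (0.0798). In S7E the rpb1 gap passed whichever of the 3 arrays was left out. The fcp1 gap in S2A (0.19) became 0.13 without S2A replicate 4 (0.0643).

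The gap differed between mutants. It was 1.04 ± 0.14 larger in S7E than in S2A (limma adjusted p = 3.43e-04), in a comparison that called 5.10% of genes, and passed whichever array was left out (0.95 to 1.18). It was 0.65 ± 0.12 larger in S2A/S7A than in S2A (limma adjusted p = 0.0112), where 1.43% of genes were called, and missed the threshold without S2A replicate 3 (0.62, adjusted p = 0.0565). rpb1 was the only one of the 7 members called in either. Of the other pairs, the rpb1 gap was called for S7E minus S7A (0.69 ± 0.14, limma adjusted p = 0.0108). It was not called for S2A minus S7A (0.0981), S2A/S7A minus S7A (0.142) or S7E minus S2A/S7A (0.148). The lsk1 gap was called for S2A minus S7A (0.58, limma adjusted p = 0.0101) and S2A/S7A minus S7A (0.45, 0.0404). Shares of all genes were not counted for these other pairs. The spread of junction minus exon over all genes (median absolute deviation) was 0.24 on S2A replicate 4 and 0.20 on S7E replicate 1, beside 0.11 to 0.15 on the other arrays, and its part in the result was not tested. With S7E replicate 1 left out the S7E gap was 0.69 (adjusted p = 0.00661).

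**Figure D3:**
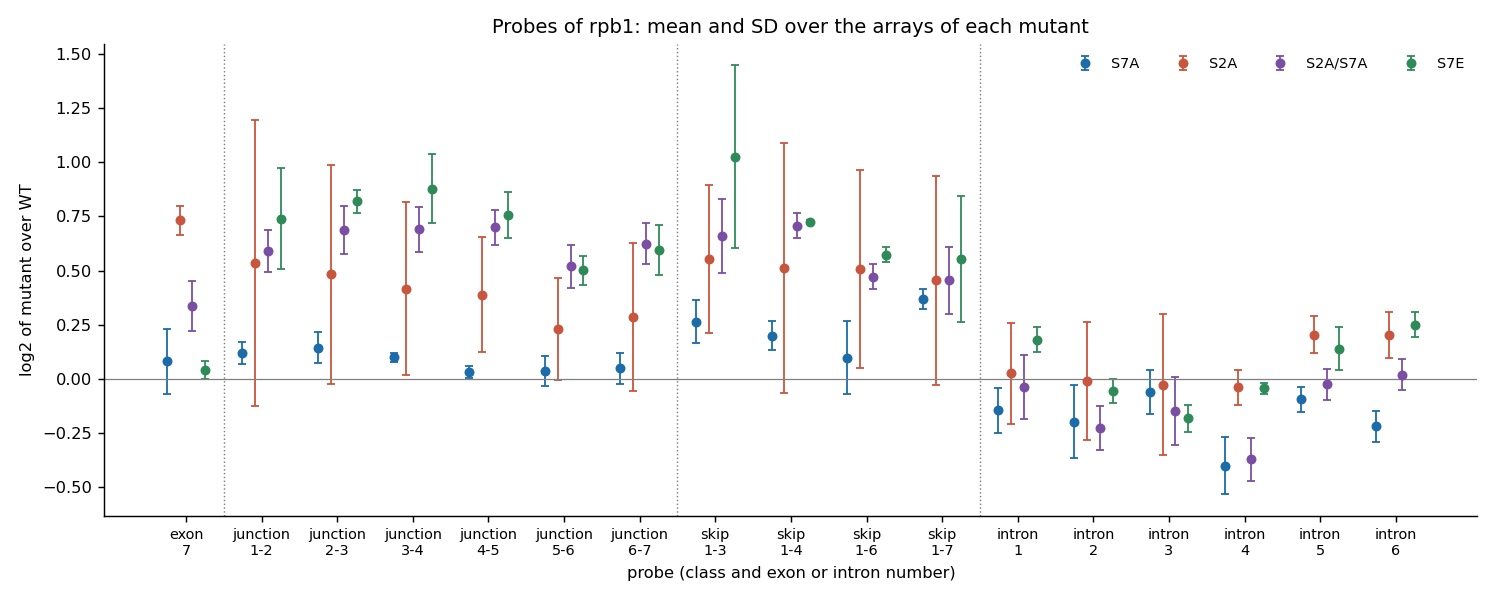
Mean log2 ratio of mutant over WT with SD over the arrays of each mutant, for the 17 probes of rpb1 ordered as exon, junction, exon-skipping and intron probes. In S7E the junction and skip probes lie between 0.50 and 1.03 and the exon probe at 0.040, while in S2A the exon probe at 0.73 lies above the mean of every other probe.

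The single junction probes were also set against the exon probe. In S7E the 6 rpb1 junction probes had means from 0.50 to 0.88, and all 6 exceeded the exon probe by the test, by 0.47 to 0.86. In S2A/S7A the means were 0.52 to 0.70, and 4 of 6 exceeded it, of which those of exons 2 and 3 and of exons 6 and 7 were lost without replicate 1, 2, 3 or 4. In S2A they were 0.23 to 0.53, and 4 of 6 lay below it, the junction of exons 5 and 6 by most (-0.50 ± 0.070, limma adjusted p = 1.62e-04). The S2A means rested in part on replicate 4: the junction of exons 1 and 2 read 0.18, 0.18, 0.25 and 1.53. Without it the means were 0.12 to 0.26 and all 6 lay below the exon probe, by -0.58 to -0.44. The junction of exons 3 and 4, called over all 4 arrays, was lost without replicate 1, 2 or 3 (0.131 to 0.167). In S7A they were 0.032 to 0.14, and 0 of 6 differed. The junction of exons 6 and 7, which shares exon 7 with the exon probe, was 0.57 ± 0.11 above it in S7E (limma adjusted p = 0.00351) and -0.45 ± 0.090 in S2A (0.00366). Of all junction probes, 10.1% differed from the exon probe of their gene in S7E, 12.7% in S2A/S7A, 14.5% in S2A and 13.7% in S7A.

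The 4 rpb1 probes that join exon 1 to exon 3, 4, 6 or 7, and so leave out exons between, read in S7E like the adjacent junctions. Their S7E means ran from 0.55 to 1.03, and 4 of 4 exceeded the exon probe, exons 1 to 3 by 1.00 ± 0.14 (limma adjusted p = 2.57e-04). In S2A/S7A 2 of 4 exceeded it, exons 1 to 3 and 1 to 4, and both calls were lost without replicate 1, 3 or 4. In S2A and S7A 0 of 4 differed. Without S2A replicate 4, however, 3 of the 4 lay below it in S2A (-0.46 for exons 1 to 4, -0.41 for 1 to 6 and -0.45 for 1 to 7), and without S7A replicate 4 exons 1 to 7 lay above it in S7A (0.42, limma adjusted p = 0.0218). A skip probe shares bases with exon 1 and with the joined exon, and how much it reads from the normal transcript was not tested. Of all skip probes, 40.2% differed from the exon probe in S7E, 21.6% in S2A/S7A, 14.0% in S2A and 41.8% in S7A. The median of skip minus exon over all skip probes was 0.19, 0.083, 0.049 and 0.24 in that order.

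The 6 intron probes of rpb1 had means from -0.041 to 0.20 in S2A, -0.37 to 0.018 in S2A/S7A and -0.18 to 0.25 in S7E. The lowest in S2A/S7A was intron 4, between -0.47 and -0.23 on its arrays, and the highest in S7E was intron 6, between 0.21 and 0.31. Relative to the exon probe all 6 were lower in S2A (-0.77 to -0.53) and all 6 in S2A/S7A (-0.72 to -0.31). In S7A 4 of 6 were lower, of which intron 1 was lost without any 1 S7A array and intron 2 without replicate 1, and intron 4 fell most against the exon (-0.48 ± 0.070, limma adjusted p = 4.61e-05). In S7E 1 of 6 was called, intron 6, which was 0.22 ± 0.075 above the exon probe (limma adjusted p = 0.0254), a call lost without any 1 S7E array (0.0740 to 0.104). These differences move with the exon probe, since each takes it away. Of all intron probes, 39.1% differed from the exon probe of their gene in S2A, 50.0% in S2A/S7A, 37.0% in S7A and 44.0% in S7E.

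**Figure D4:**
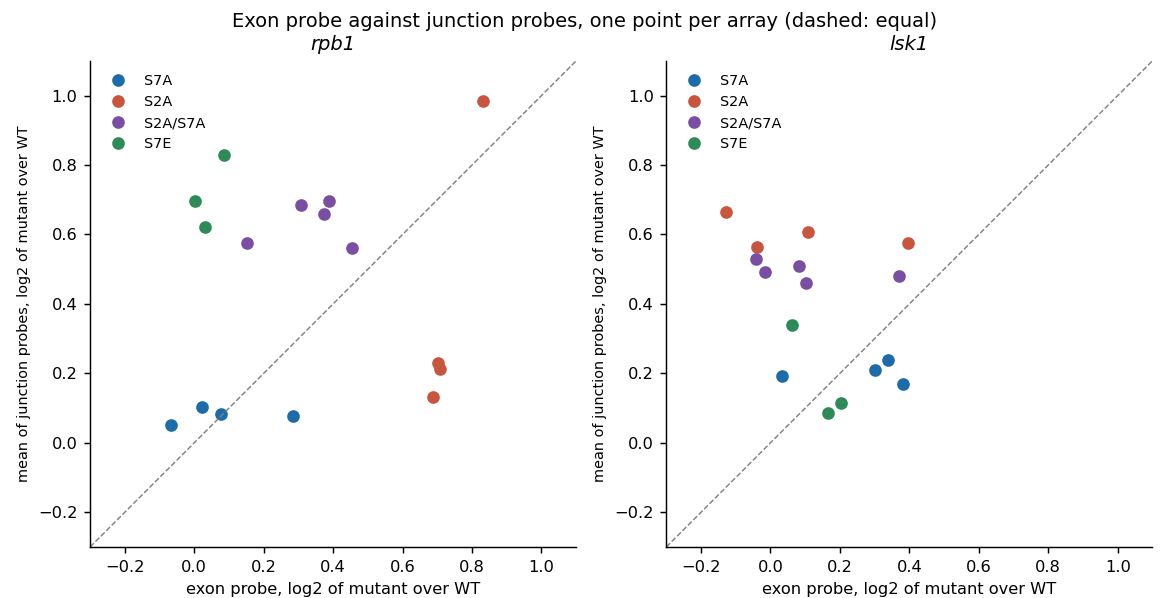
Exon probe (horizontal) against the mean of the junction probes (vertical) for rpb1 and lsk1, both as log2 of mutant over WT, one point per array, with a dashed line where they are equal. For rpb1 the S7E and S2A/S7A arrays lie above the line and 3 of the 4 S2A arrays below it, and for lsk1 all S2A and S2A/S7A arrays lie above it.

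Of the kinases, mcs6, which has the exon probe alone, was lower in S2A/S7A and higher in S7E. It read -0.17, -0.30, -0.36, -0.34 and -0.20 on the S2A/S7A arrays and 0.15, 0.26 and 0.23 on the S7E arrays. The arrays of these mutants did not overlap, and both stood on 1 side of 0. It fell by 0.28 ± 0.048 in S2A/S7A (limma adjusted p = 1.28e-04) and rose by 0.21 ± 0.062 in S7E (0.0103, and 0.0549 without S7E replicate 2), a difference of 0.49 ± 0.078 (limma adjusted p = 2.35e-04). In S2A it was -0.11 ± 0.053 (0.0993) and in S7A 0.052 ± 0.053 (0.486). S2A was below S7E by the test (difference 0.31 ± 0.082, limma adjusted p = 0.00824), and S2A/S7A minus S7A was -0.33 ± 0.072 (limma adjusted p = 0.00179).

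The Cdk9 kinase gene read 0.24, 0.39 and 0.28 on the S7E arrays and 0.30, 0.30, 0.21, 0.37 and 0.061 on the S2A/S7A arrays. Its S2A arrays were at 0.020, 0.24, 0.25 and 0.045, and its S7A arrays between -0.023 and 0.11. All arrays but 1 of S7A were above 0, and the mutants overlapped except S7E with S7A. cdk9 rose by 0.29 ± 0.060 in S7E (limma adjusted p = 8.36e-04), 0.24 ± 0.046 in S2A/S7A (3.74e-04) and 0.14 ± 0.051 in S2A (0.0312). The call in S2A was lost without S2A replicate 2 (0.127) or 3 (0.143). The 2 junction probes averaged 0.36 ± 0.077 in S7E (limma adjusted p = 9.85e-04), and were 0.12 ± 0.060 in S2A/S7A (0.0871) and 0.12 ± 0.066 in S2A (0.133). In S2A the junction mean was 0.44 on replicate 4 and at most 0.051 on the others, and it was 0.013 without replicate 4 (adjusted p = 0.859) and 0.19 without replicate 1 (0.0389). Intron 2 of cdk9 lay below its exon probe in S7A (-0.24, limma adjusted p = 0.0110), S2A/S7A (-0.26, 0.00427) and S7E (-0.32, 0.00402). It was not called in S2A (-0.15, 0.0932), and intron 1 was called in no mutant.

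The cyclin gene pch1 was called in S7E through 1 array. Its exon probe read 0.80 on S7E replicate 1 and 0.047 on both other S7E arrays. The fitted 0.32 ± 0.10 (limma adjusted p = 0.0129) became 0.062 without that array (adjusted p = 0.549), and the 2 junction probes gave 0.063 ± 0.054 (0.327). In S2A/S7A pch1 was -0.13 ± 0.078 on the exon probe (0.157) and fell by 0.12 ± 0.042 on the junctions (0.0164). Its exon value was -0.045 in S7A (0.725) and -0.054 in S2A (0.616).

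The Ser2 kinase gene lsk1, like rpb1, differed between probe classes. Its exon probe, in exon 1, read 0.38, 0.30, 0.032 and 0.34 in S7A, 0.40, -0.037, 0.11 and -0.13 in S2A, -0.016, -0.041, 0.37, 0.083 and 0.10 in S2A/S7A, and 0.063, 0.20 and 0.17 in S7E. All 4 mutants overlapped on it. The mean of the 3 junction probes read 0.58, 0.56, 0.61 and 0.66 in S2A, and 0.49, 0.53, 0.48, 0.51 and 0.46 in S2A/S7A. It read 0.17, 0.21, 0.19 and 0.24 in S7A and 0.34, 0.11 and 0.086 in S7E. By the junctions every S2A and S2A/S7A array was above every S7A and S7E array, and the S2A arrays were above those of S2A/S7A, a difference that did not pass the test (S2A/S7A minus S2A -0.10 ± 0.053, limma adjusted p = 0.164).

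On the exon probe lsk1 was called in S7A alone (0.26 ± 0.081, limma adjusted p = 0.0199), a call lost without S7A replicate 1 (0.0925), 2 (0.100) or 4 (0.0679). On the junctions it rose by 0.60 ± 0.039 in S2A (1.52-fold, limma adjusted p = 8.30e-09), 0.50 ± 0.035 in S2A/S7A (1.28e-08), 0.20 ± 0.039 in S7A (8.68e-04) and 0.19 ± 0.045 in S7E (0.00239). The S7E value was 0.11 without S7E replicate 1 (adjusted p = 0.0915). The S2A junction value was between 0.59 and 0.62 whichever S2A array was left out.

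Junction minus exon of lsk1 was 0.52 ± 0.095 in S2A (limma adjusted p = 0.00235) and 0.39 ± 0.086 in S2A/S7A (0.00772), with the junctions higher on 9 of 9 arrays. It was -0.061 ± 0.095 in S7A (0.719) and 0.030 ± 0.11 in S7E (0.892). All 3 junction probes exceeded the exon probe by the test in S2A and in S2A/S7A, and 0 of 3 did in S7A and in S7E. The shares of all junction probes are those given for rpb1. The calls of exons 1 and 2 were lost without S2A replicate 2, 3 or 4 (0.0782 to 0.153) and without S2A/S7A replicate 1, 2, 4 or 5 (0.0734 to 0.209). In S2A the single gaps were 0.35 for exons 1 and 2, 0.57 for exons 2 and 3 and 0.63 for exons 3 and 4, with an SE of 0.083 to 0.12, and were not tested against each other.

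The introns of lsk1 differed from each other. Intron 2 read -0.73, -0.86, -0.81 and -0.83 on the S7A arrays, between -0.81 and -0.58 on the 5 S2A/S7A arrays, and -0.62, -0.56 and -0.63 on the S7E arrays. On the S2A arrays it read -0.051, -0.16, 0.070 and -0.029. Every array of S7A, S2A/S7A and S7E, the mutants with an altered position 7, was below every S2A array. Relative to the exon probe it was -1.07 ± 0.096 in S7A (limma adjusted p = 2.40e-07), -0.82 ± 0.086 in S2A/S7A (9.64e-07), -0.76 ± 0.11 in S7E (5.24e-05) and -0.13 ± 0.096 in S2A (0.313). The difference of S2A from the other 3 on this probe was not tested. Intron 1 was above the exon probe in S2A (0.73 ± 0.13, limma adjusted p = 2.04e-04) and in S2A/S7A (0.34 ± 0.11, 0.0195), the second lost without S2A/S7A replicate 1 (0.0865) or 2 (0.153). Intron 3 had a value on 2 or 3 arrays of each mutant and was below the exon probe in S7E (-0.39 ± 0.13, 0.0313).

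**Figure D5:**
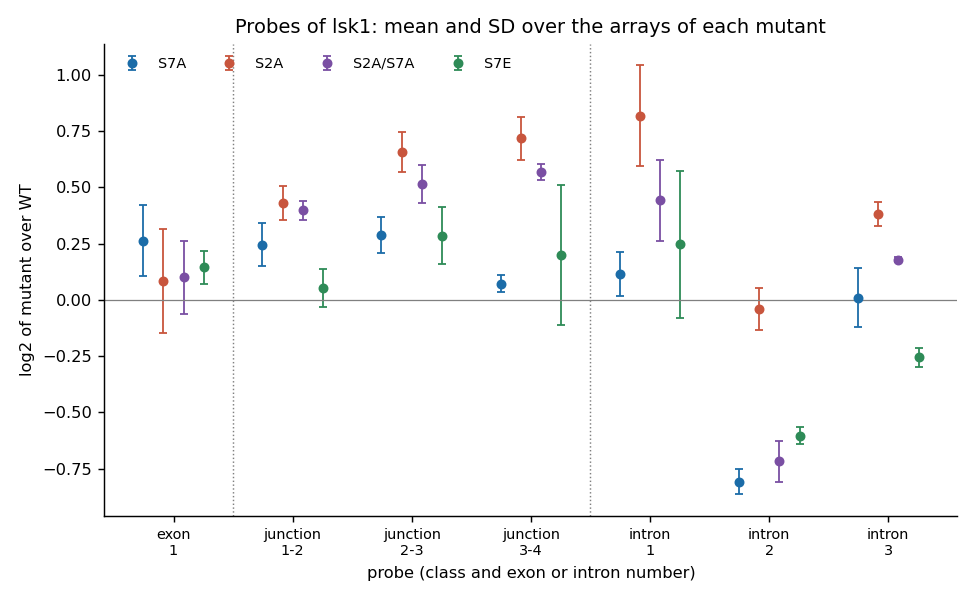
Mean log2 ratio of mutant over WT with SD over the arrays of each mutant for the 7 probes of lsk1, ordered as exon, junction and intron probes. In S2A the junction probes lie between 0.43 and 0.72 and the exon probe at 0.084, and intron 2 lies at -0.60 or lower in S7A, S2A/S7A and S7E but at -0.042 in S2A.

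Its cyclin gene lsc1 went the other way. The lsc1 exon probe read -0.38, -0.27, -0.32 and -0.36 in S2A and -0.30, -0.39, -0.17, -0.023 and -0.52 in S2A/S7A. It was below 0 on all 16 arrays. The fall was 0.33 ± 0.061 in S2A (limma adjusted p = 2.67e-04) and 0.29 ± 0.055 in S2A/S7A (3.45e-04). In S7A it was -0.17 ± 0.061 (0.0407), and this call was lost when any 1 of the 4 S7A arrays was left out, while S7E gave -0.13 ± 0.071 (0.136). Of its 4 junction probes, 3 had a value on all 16 arrays, while that of exons 3 and 4 had one on 3 S7A, 2 S2A, 0 S2A/S7A and 1 S7E arrays. The mean of the 3 complete ones fell by 0.22 ± 0.044 in S2A (limma adjusted p = 4.31e-04) and by 0.32 ± 0.039 in S2A/S7A (4.81e-06), and was -0.049 ± 0.044 in S7A (0.396) and -0.0026 ± 0.051 in S7E (0.968). The counts of junction means use the fourth probe where it had a value. Thus the S2A and S2A/S7A falls of lsc1 were present on the exon and junction probes. Intron 1 did not share them, with means of 0.055 in S2A (2 arrays) and 0.097 in S2A/S7A. It lay above the exon probe by the test in all 4 mutants (0.25 to 0.37), and intron 2 in S7A (0.22, limma adjusted p = 0.0253). Means of introns 2, 3 and 4 were -0.10, -0.31 and -0.37 in S2A and -0.16, -0.24 and -0.48 in S2A/S7A.

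On the phosphatase gene ssu72 the S2A arrays stood alone. The exon probe read -0.57, -0.37, -0.31 and -0.38 in S2A and between -0.10 and 0.27 on the other 12 arrays. ssu72 fell by 0.41 ± 0.062 in S2A (1.33-fold lower, limma adjusted p = 4.75e-05). It was -0.013 ± 0.062 in S7A (0.892), 0.019 ± 0.055 in S2A/S7A (0.779) and 0.11 ± 0.072 in S7E (0.216). Its single junction probe fell by 0.36 ± 0.064 in S2A (limma adjusted p = 2.04e-04) and was -0.034 ± 0.058 in S2A/S7A (0.623). The difference of S2A/S7A from S2A was 0.43 ± 0.083 on the exon probe (limma adjusted p = 0.00198) and 0.32 ± 0.086 on the junction (0.0134). Its intron probe read 0.46, -0.25, -0.30 and 0.11 on the S2A arrays, a wide spread. It was 0.41 ± 0.11 above the exon probe there (limma adjusted p = 0.00845), and 0.23 without S2A replicate 1 (0.103). In S7E it was not called, but was 0.52 above the exon probe without S7E replicate 1 (0.00820).

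The phosphatase gene fcp1 was below 0 on all S7A and S2A arrays and above 0 on all S2A/S7A and S7E arrays. Its exon probe read -0.18, -0.23, -0.026 and -0.33 in S7A and -0.20, -0.12, -0.043 and -0.18 in S2A. It read 0.32, 0.26, 0.076, 0.20 and 0.067 in S2A/S7A and 0.42, 0.071 and 0.080 in S7E. The fall in S7A was 0.19 ± 0.065 (limma adjusted p = 0.0368) and was lost without S7A replicate 1 (0.0923), 2 (0.136) or 4 (0.178), and S2A gave -0.14 ± 0.065 (0.0884). The rise in S2A/S7A was 0.18 ± 0.059 (0.0140, lost without S2A/S7A replicate 1 at 0.0632 or 2 at 0.0656). In S7E it was 0.19 ± 0.076 (0.0426), and 0.034 without S7E replicate 1 (0.741).

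Between mutants fcp1 was 0.32 ± 0.088 higher in S2A/S7A than in S2A (limma adjusted p = 0.0172) and 0.37 ± 0.088 higher than in S7A (0.00344). The 5 junction probes gave 0.31 ± 0.054 in S2A/S7A (limma adjusted p = 1.31e-04), 0.16 ± 0.070 in S7E (0.0669), 0.051 ± 0.060 in S2A (0.488) and -0.061 ± 0.060 in S7A (0.455). Introns 1 and 2 of fcp1 lay below its exon probe in S2A/S7A (-0.40 and -0.67) and in S7E (-0.55 and -0.43), by the test in each case. The S7E call of intron 2 was lost without S7E replicate 1 (0.0873). Introns 4 and 5 lay above it in S2A (0.25 and 0.30), intron 4 not without S2A replicate 1 or 3 and intron 5 not without replicate 2. In S7A intron 4 lay above it (0.24, limma adjusted p = 0.0328) and intron 2 below it (-0.28, 0.0177), the first lost without any 1 S7A array and the second without replicate 1, 2 or 3. The probe joining exons 1 and 3 was 0.50 ± 0.072 above the exon probe in S7A (limma adjusted p = 8.38e-04), 0.29 ± 0.061 above it in S2A (0.0117) and -0.26 ± 0.072 from it in S7E (0.0217). The S2A call was lost without S2A replicate 3 (0.0809) and the S7E call without S7E replicate 1 (0.201) or 2 (0.0610). Over all skip probes the median difference from the exon probe was 0.24 in S7A, 0.049 in S2A and 0.19 in S7E. Of them 41.8%, 14.0% and 40.2% were called.

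The elongation factor gene spt5 read 0.32, 0.11, 0.26, 0.49 and 0.25 in S2A/S7A, 0.46, 0.20 and 0.19 in S7E, 0.19, 0.072, 0.17 and 0.24 in S2A, and between -0.073 and 0.022 in S7A. The S7A arrays were below every array of the other mutants, which overlapped each other. spt5 rose by 0.29 ± 0.053 in S2A/S7A (1.22-fold, limma adjusted p = 2.61e-04), 0.29 ± 0.069 in S7E (0.00248) and 0.17 ± 0.059 in S2A (0.0241). The S7E value was 0.18 without replicate 1 (0.0777), and the S2A call was lost without S2A replicate 1 (0.0664), 3 (0.0734) or 4 (0.0825). S2A/S7A exceeded S7A by 0.31 ± 0.080 (limma adjusted p = 0.00527) and S7E exceeded S7A by 0.31 ± 0.091 (0.0125, or 0.108 without S7E replicate 1). S7E and S2A/S7A were not told apart, with a 95% interval of the difference from -0.19 to 0.18.

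Compared pair by pair on the exon probes, members called were 2 of 9 between S2A and S7A (rpb1 and ssu72), where 42.0% of all genes were called. Between S2A/S7A and S2A they were 3 (rpb1, fcp1 and ssu72; 23.2%), and between S2A/S7A and S7A 4 (rpb1, mcs6, fcp1 and spt5; 41.6%). Between S7E and S7A they were 4 (cdk9, pch1, fcp1 and spt5), against 42.9% of all genes, and all 4 calls were lost without S7E replicate 1. Between S7E and S2A they were 5 (rpb1, pch1, mcs6, fcp1 and ssu72), against 35.5%, and between S7E and S2A/S7A 3 (rpb1, pch1 and mcs6), against 36.0%. The S7E calls of pch1, and of fcp1 against S2A, were also lost without that array. Others that 1 array decided were cdk9 between S7E and S7A (lost also without S7A replicate 2, 3 or 4 or S7E replicate 2), pch1 between S7E and S7A (any S7A array), pch1 between S7E and S2A (S2A replicate 1, 2 or 4) and rpb1 between S7E and S2A/S7A (-0.29, and 0.0531 for the adjusted p without S7E replicate 3). The pairs share mutants and are not independent.

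On the junction means the calls of 7 members were 3 between S2A and S7A (lsk1, lsc1 and ssu72; 45.8% of genes), 3 between S2A/S7A and S2A (pch1, fcp1 and ssu72; 25.4%) and 5 between S2A/S7A and S7A (rpb1, pch1, lsk1, lsc1 and fcp1), where 44.7% of genes were called. They were 1 between S7E and S7A (rpb1, 43.2%), 2 between S7E and S2A (lsk1 and lsc1, 32.2%) and 3 between S7E and S2A/S7A (pch1, lsk1 and lsc1, 37.3%). For rpb1 the junction mean was 0.65 ± 0.14 higher in S7E than in S7A (limma adjusted p = 0.00206), where the exon probe gave -0.039. For lsk1 it was 0.40 ± 0.055 higher in S2A than in S7A (limma adjusted p = 4.19e-05), where the exon probe gave -0.18 ± 0.11 (0.226).

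The double mutant was also set against the sum of the single mutants. For 3 of 9 members the difference passed the test, where 26.4% of all genes were called. rpb1 was -0.48 ± 0.097 from the sum (limma adjusted p = 0.00250), fcp1 0.51 ± 0.11 above it (0.00378) and ssu72 0.44 ± 0.10 above it (0.00641). On the junction means 3 of 7 members passed (pch1, lsk1 and fcp1), where 28.8% of genes were called. For lsk1 the difference was -0.30 ± 0.065 (limma adjusted p = 0.00360), beside -0.24 on the exon probe (0.207), and for pch1 -0.23 ± 0.078 (0.0407), beside -0.032 (0.902). For rpb1 the junction mean gave 0.18 ± 0.16 (0.432), of the opposite sign to the exon probe. For fcp1 it gave 0.32 ± 0.10 (0.0267) and for ssu72 0.28 ± 0.11 (0.0626), of the same sign.

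Over all members, intron probes differed from the exon probe of their gene in 10 of 23 cases in S7A, 11 in S2A, 12 in S2A/S7A and 7 in S7E, where 37.0%, 39.1%, 50.0% and 44.0% of all intron probes did. Junction probes differed in 2 of 22 cases in S7A, 9 in S2A, 9 in S2A/S7A and 6 in S7E, beside 13.7%, 14.5%, 12.7% and 10.1% of all junction probes. Of these, rpb1, lsk1 and fcp1 held every one, and both S7A calls, of fcp1, were lost when 1 array was left out. Skip probes differed in 1, 1, 2 and 5 of 5 cases, beside 41.8%, 14.0%, 21.6% and 40.2% of all skip probes. The probes of a gene share its exon value and are not independent. The junction of exons 3 and 4 of lsc1 had too few values to test.

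Of 59 further genes of the transcription machinery, listed by complex, 57 were tested. In S7A 6 rose and 9 fell, in S2A 16 and 12, in S2A/S7A 26 and 14, and in S7E 16 and 14, and the shares of all genes called higher and lower were those given for each mutant above. Every count by complex below is to be read against the same shares, 31.2% higher and 27.1% lower in S2A, 35.1% and 27.8% in S2A/S7A and 33.5% and 27.6% in S7E. With 3 to 14 genes a complex, none of these counts is a result about the complex. Their median was -0.019, 0.061, 0.11 and 0.046, beside 0.0027, 0.025, 0.043 and 0.038 over all genes. Of the 10 RNA polymerase II subunits tested besides rpb1, 2 rose and 4 fell in S2A, and 5 rose and 3 fell in S2A/S7A. rpb8, the gene of a subunit shared by the nuclear polymerases, fell by 0.45 ± 0.054 in S2A (limma adjusted p = 5.34e-06) and by 0.49 ± 0.063 in S7E (9.89e-06). rpb4, which encodes a subunit of the stalk, rose by 0.55 ± 0.12 in S2A/S7A (0.00103), and rpb5 fell by 0.37 ± 0.062 in S7A (3.77e-04). The other mutants had rpb5 below 0 on every array too. It read -0.41, -0.15, -0.020 and -0.39 in S2A, -0.26 to -0.11 in S2A/S7A, and -0.18, -0.33 and -0.45 in S7E. Genes named by rank are given where the naming rule picked them, and their values in other mutants are often left out. rpb12 in S7E rested on replicate 1, with 1.32 there and 0.38 and 0.37 on the others (0.73 ± 0.18, limma adjusted p = 0.00328, and 0.106 without it).

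Among 13 TFIIH and CTD kinase partners, srb10 and srb11, the kinase and cyclin of the Mediator complex, both fell in S2A/S7A, by 0.40 ± 0.045 (4 arrays, limma adjusted p = 2.91e-06) and 0.53 ± 0.052 (4.57e-07). srb10 also fell by 0.33 ± 0.045 in S2A (2.75e-05), where srb11 read -0.26, -0.43, -0.34 and -0.23. On the S7E arrays srb10 read -0.21, -0.31 and -0.32, and srb11 -0.17, -0.29 and -0.22. Of the TFIIH genes, ptr8 fell by 0.31 ± 0.066 in S7A (0.00241), where tfb5 read 0.11, -0.26, 0.22 and -0.13. tfb5 rose by 0.53 ± 0.10 in S2A/S7A (3.10e-04), where ptr8 was also above 0, at 0.31, 0.33, 0.21, 0.37 and 0.33. On the S7E arrays ptr8 read 0.62, 0.35 and 0.33 and tfb5 0.56, 0.64 and 0.83. Of the direct partners of the members, mcs2, the cyclin of Mcs6, was not called in any mutant (-0.12 to 0.21). Its S2A arrays read 0.29, 0.43, 0.45 and -0.39, and without replicate 4 the S2A value was 0.37 (limma adjusted p = 2.79e-05). pmh1, the third subunit of that kinase, rose by 0.23 ± 0.084 in S2A/S7A (0.0278), lost without S2A/S7A replicate 1 (0.0745) or 4 (0.148). csk1, the kinase that activates it, fell by 0.23 ± 0.075 in S7A (0.0281) and 0.27 ± 0.075 in S2A (0.00626) and rose by 0.23 ± 0.088 in S7E (0.0351), the S7A call being lost without replicate 1, 2 or 3, the S2A call without replicate 2 and the S7E call without any 1 array. lsg1, the third subunit of the Lsk1 kinase, was not called (-0.032 to 0.18), though without S2A replicate 3 the S2A value was 0.29 (0.0115).

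Of 14 further elongation factors, 6 rose and 3 fell in S2A, and 7 rose and 2 fell in S2A/S7A. eaf1 read 0.30, 0.51, 0.63 and 0.84 on the S2A arrays (0.57 ± 0.076, limma adjusted p = 1.32e-05). Its partner ell1, an elongation factor gene, rose by 0.38 ± 0.076 in S2A (5.32e-04) and by 0.30 ± 0.076 in S7A (0.00745, and 0.0654 without S7A replicate 1). These mutants were not particular in this. ell1 read 0.65, 0.57, 0.46, 0.42 and 0.40 on the S2A/S7A arrays and 0.21, 0.58 and 0.57 on the S7E arrays. spt4, the partner of Spt5, rose by 0.28 ± 0.063 in S2A (0.00151) and by 0.14 ± 0.057 in S2A/S7A (0.0492), the second of which was lost without S2A/S7A replicate 1, 3, 4 or 5. Of 14 cleavage and termination factors, 11 were called in S2A/S7A (8 higher and 3 lower) and 3 in S2A (all higher). sen1, a helicase gene, fell by 0.56 ± 0.055 in S7E (7.82e-07), with -0.54, -0.55 and -0.56 on its arrays. swd22 rose by 0.69 ± 0.12 in S7E (2.04e-04), with 1.28 on replicate 1 and 0.31 and 0.39 on the others, and pfs2 rose by 0.27 ± 0.072 in S7A (0.0110, and 0.0550 without S7A replicate 3). Of 3 CTD phosphatase and isomerase genes 2 rose in S2A and in S7E, and of 3 capping enzyme genes 2 rose and 1 fell in S2A/S7A.

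Mating genes differed between mutant and WT as well. Of 6 genes of M cells 5 were measured, and in S2A 2 of these fell, mat1-Mc (-2.49 ± 0.098) and mfm2 (-2.56 ± 0.14), and 1 rose (mam2, 0.77 ± 0.071), with the 5 between -2.56 and 0.77. In the other mutants the 5 lay between -0.77 and 0.81. Of them 3 were called higher and 2 lower in S7A, 3 higher and 0 lower in S2A/S7A, and 2 higher and 0 lower in S7E. Of 4 genes of P cells 3 were measured, between -0.47 and 0.68 over the mutants. In S7A all 3 were called higher, and in S2A 1 higher and 1 lower. In S2A/S7A 2 were called higher and 1 lower, and in S7E 2 higher and 0 lower. The shares of all genes called higher and lower were 18.0% and 16.6% in S7A and 31.2% and 27.1% in S2A. They were 35.1% and 27.8% in S2A/S7A and 33.5% and 27.6% in S7E. The part of the mating genes in the members' values was not tested.

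As a description over the 16 arrays, without a test, the genes whose exon values were most like those of rpb1 among 4828 complete genes were SPCC191.12c (Pearson r = 0.94), SPBC660.18c (0.93), saw1 (0.93), tra2 (0.93) and cta5 (0.92). Of these, SPCC191.12c read 0.76 in S2A and 0.39 in S2A/S7A, tra2 0.71 and 0.32, and saw1, at 0.20 and -0.046, ran lower throughout. The gene most like mcs6 was gpc1 (r = 0.96), like pch1 SPCC777.02 (0.96), like fcp1 SPCC777.17c (0.93), like spt5 brl2 (0.92), like ssu72 SPCC1884.01 (0.91), and like cdk9 tho1 (0.91). For lsc1 it was alp7 (0.83) and for lsk1 SPAC1F7.11c (0.83). Arrays of a mutant share its values, so these are not independent points. Among the members, rpb1 and ssu72 ran most opposite (r = -0.80) and fcp1 and spt5 most alike (0.74).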

How the data were processed

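The authors deposited 1 log ratio per probe for each two-colour Agilent array, read here as log2 of mutant over WT. Normalization, base and direction are not given in the sources used here, and scanner files with background or saturation flags were not used here. From the deposited log2 values, a gene value was the mean of its exon probes (1 for each member). A gene entered the fit if each mutant had 2 or more arrays with its value (5163 genes). limma (version 3.58.1, R 4.3.3) fitted to 16 arrays the 4 mutant means and, per gene, a dye effect. Each mean was tested against 0, and contrasts compared the 6 pairs of mutants and the double mutant with the sum of the singles, two-sided, with Benjamini-Hochberg adjustment over all genes of a contrast. Intron, junction and skip probes went through the same fit after the gene's exon value was taken away, and each probe class was adjusted on its own. The fit was tested on simulated data.

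Arrays without a value (11445 probe values in all) were left out gene by gene, with none imputed. Same-numbered arrays showed no clear pairing (r of deviations -0.23 to 0.42, median 0.075, with 8 of 21 pairs above 0.1). Differently numbered arrays gave -0.52 to 0.45, median -0.0023, with 26 of 74 pairs above 0.1.

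Members and gene lists were chosen with earlier results of these data known. Other named genes are the 2 highest and 2 lowest machinery genes of each mutant that were called and had the same sign throughout its arrays, partners of members (rpb2 was not analysed here), and by Pearson r the 5 genes most like rpb1 and 1 like each other member. Names come from RefSeq (ASM294v3), which lists rpb12 as rpc10. Alternatives covered the dye term, centring, scaling, array weights, the gene value, missing and repeated values, the arrays fitted, and each array left out. Junction means, their difference from the exon probe, means of complete junction probes only, and single probes with 1 array left out were added after seeing the data.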

Additional observations from a re-analysis of the deposited data

Results flagged for a closer look

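Within mutants, 48 sets of 4 or 5 arrays were examined for 1 array far from the rest, which chance alone gives in about 1 of 20 such sets, and 3 were found. The rpb1 exon probe on S2A replicate 4 read 0.83, with the other S2A arrays between 0.69 and 0.71. The rpb1 junction mean on the same array read 0.99, with the others between 0.13 and 0.23. The ssu72 junction probe on S7A replicate 3 read 0.21, with the others between -0.017 and -0.0022.

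On the exon probe the double mutant differed from the sum of the single mutants, by a test of that difference, for 3 members. They were rpb1 (-0.48), fcp1 (0.51) and ssu72 (0.44). These 3 of 9 members stand beside 26.4% of all genes. For rpb1 the junction mean gave 0.18, which was not called.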

How the results depend on the processing

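Limits come first. WT was measured only within the ratios, each exon value rests on 1 probe, spot background was not analysed here, and with 3 to 5 arrays a mutant, most calls of small changes hang on single arrays. With array numbers as a replicate block (correlation 0.0010) the count of members called stayed at 3 in S7A, 5 in S2A, 6 in S2A/S7A and 5 in S7E.

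Members called in S7A (3) became 0 with the mean of all probes and 1 with the junction mean. Over all genes the S7A calls, 928 higher and 857 lower of 5163, became 921 and 1004 of 5181 with the mean of all probes. With the junction mean they were 565 and 297 of 2190, and with weights 1585 and 1482 of 5163. Members called in S2A (5) became 8 with array weights and 3 in a fit of that mutant alone. Over all genes the S2A calls, 1613 higher and 1398 lower of 5163, became 2173 and 1692 with weights. In the fit of that mutant alone they were 1227 and 1033 of 5156. Members called in S7E (5) became 3 with arrays scaled, 8 in a fit of that mutant alone, 3 without the arrays that stood apart and 3 with the junction mean. Over all genes the S7E calls, 1729 higher and 1425 lower of 5163, became 1344 and 1306 with scaling. In the fit of that mutant alone they were 2285 and 1772 of 5157. Without the arrays that stood apart they were 1501 and 1583 of 5133, and with the junction mean 704 and 630 of 2190. None of these changes is a result about the members. Departures from the sum of the single mutants (3) became 6 with weights and 5 without the arrays that stood apart. Machinery genes became 24 in S7A with weights, 18 in S2A in a fit of that mutant alone, and 18, 24 and 18 in S2A, S2A/S7A and S7E with the junction mean, which fewer genes have. Intron and junction probes became 24 in S7A and 35 in S2A with weights, and 12 in S2A and 30 in S7E in fits of 1 mutant. Leaving out 1 array gave 0 to 2 members in S7A, 3 to 4 in S2A, 5 to 6 in S2A/S7A, 2 to 5 in S7E, 15 to 23 calls over the 6 pairs and 3 to 4 departures from the sum. It gave 9 to 12, 22 to 29, 33 to 35 and 18 to 26 machinery genes in the mutants in that order, and 5 to 10, 16 to 26, 17 to 24 and 14 to 17 intron and junction probes. Over all genes, calls without 1 array of the mutant were 618 to 854 higher and 574 to 714 lower in S7A. They were 1338 to 1670 and 1240 to 1385 in S2A, 1644 to 1722 and 1250 to 1375 in S2A/S7A, and 1187 to 1588 and 1153 to 1299 in S7E. No called value turned its sign with 1 array left out, while some uncalled values near 0 did.

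Values called in the fit as reported or under the alternative turned their sign only where the gene value was built from other probes. For rpb1 the mean of all probes and the junction mean gave 0.036 and 0.26 for S2A/S7A minus S2A, 0.44 and 0.65 for S7E minus S7A, 0.14 and 0.34 for S7E minus S2A, 0.10 and 0.087 for S7E minus S2A/S7A, and 0.014 and 0.18 for the departure from the sum. For lsk1 they gave 0.41 and 0.40 for S2A minus S7A, 0.19 and 0.30 for S2A/S7A minus S7A, -0.41 and -0.41 for S7E minus S2A, and -0.19 and -0.31 for S7E minus S2A/S7A, and the mean of all probes gave -0.22 for S2A/S7A minus S2A. For mcs2 in S2A/S7A they gave -0.20 and -0.12, and for pmh1 in S7E 0.17 and 0.20. The junction mean gave -0.0032 for pch1, S7E minus S2A, and 0.25 for srb11 in S7A. The cause was not tested.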
